A study of Mus musculus with 6 samples.

Results

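Intraflagellar transport (IFT) and BBSome genes encode the cargo trains of the primary cilium and the motors that move them. Their transcripts were measured by RNA sequencing in colonic intestinal epithelial cells (IECs) from mice given dextran sulfate sodium (DSS), a polysaccharide in the drinking water that injures the colon. The members were taken by gene symbol, under a rule that was set with earlier results of these data known. Every row of the count table named Ift or Bbs followed only by digits was kept, and 17 subunits with other names were added (the motor genes Dync2h1, Dync2li1, Wdr34, Wdr60, Kif3a, Kif3b and Kifap3, and Traf3ip1, Cluap1, Ttc21b, Ttc26, Ttc30a1, Ttc30b, Wdr19, Wdr35, Ttc8 and Arl6). This rule found 39 of the 55487 genes in the table. The comparison was between 3 libraries from Nsd2 f/f mice and 3 from Nsd2 Vil-KO mice.

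All mice carried a floxed Nsd2 allele, were on the C57BL/6J background, were 2 months old and received 2% DSS, so both genotypes share the agent and its dose, and how severe the colitis was in each mouse is not given in the labels. The Nsd2 Vil-KO mice also carried Cre driven by the Villin promoter, which acts in the intestinal epithelium and leaves Nsd2 in other cells. The labels name the Nsd2 f/f libraries in more than one way, as WT in the title and as NSD2-FF in the genotype field. Nsd2 encodes a histone methyltransferase that dimethylates histone H3 at lysine 36. No label says whether each library came from its own mouse, so the p-values measure the spread between these libraries, which may be partly technical.

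A primary cilium is built and kept by trains that run along its microtubule axoneme. The trains consist of the IFT-B complex, which leads the way to the tip behind the kinesin-2 motor, and the IFT-A complex, which serves the return to the base behind the dynein-2 motor. The BBSome is a coat-like adaptor that rides on these trains and carries membrane receptors out of the cilium, and its genes are those mutated in Bardet-Biedl syndrome. In the gut, cilia are best known from mesenchymal cells beneath the epithelium, while mature absorptive cells carry a brush border of microvilli, and several IFT subunits also work outside cilia, Ift20 at the Golgi among them.

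Many cilium genes carry an X-box, the binding site of RFX transcription factors, close to their start site. The members' promoters are shown for this reason. A window from 250 bases before to 50 bases after the start (RefSeq, GRCm38.p6) was found for 34 of the 39 members, and Dync2li1, Ift122, Ift81, Ttc30b and Ift80 had none. The full X-box, searched on both strands as GTTNCC, 0 to 3 free bases and GGNAAC, lay in the windows of 3 members, Bbs7, Ift57 and Ttc26. That was 8.82% of the members against 0.936% of the 27025 genes with a window (253 genes). The 3 sites are given with 8 flanking bases on each side, with the X-box in capitals. The last line gives the shorter element GTTGCC of Kif3a, with that element in capitals. Kif3a is shown because it passed the criterion defined below. Of the other members that passed, Kifap3 and Bbs2 had no such element in their windows, and Dync2li1 had no window. None of the 3 members with a full X-box passed in the main comparison.
Bbs7: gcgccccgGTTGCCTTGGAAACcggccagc
Ift57: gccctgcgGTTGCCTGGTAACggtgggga
Ttc26: ccggcggcGTTGCCGTGGAAACggagctcg
Kif3a: ccgcaggcGTTGCCccagtcta

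The Bbs7 stretch lies at chr3:36613489-36613518 on the minus strand, and its X-box begins 121 bases before the start. The Ift57 stretch lies at chr16:49699226-49699254 on the plus strand, 60 bases before the start. The Ttc26 stretch lies at chr6:38381483-38381512 on the plus strand, 33 bases before the start. All starts here are those of RefSeq. In the GENCODE annotation Ift57 begins at 49699233 and Ttc26 at 38381469, so by that annotation both X-boxes lie after the start. The Kif3a stretch lies at chr11:53567263-53567284 on the plus strand, 98 bases before the start. The element GTTGCC on either strand, which is also part of the 3 full sites shown, was in the windows of 13 of the 34 members (38.2%) and of 3821 of all genes (14.1%). A match describes the letters in the window and was not tested as a bound site. Rfx3, which encodes an RFX factor of cilium genes, was at 7.42, 4.84 and 3.87 TMM-scaled counts per 1000000 (CPM) in Nsd2 f/f and at 2.77, 0.443 and 3.21 CPM in Nsd2 Vil-KO. The genotypes did not overlap for Rfx3, and 4.71% of all tested genes were likewise lower without overlap. Rfx3 had 8 counts in Nsd2 Vil-KO replicate 2 and an unadjusted p = 0.0778 in edgeR's quasi-likelihood test (log2 fold change −1.32, SE 0.64). Rfx2, another RFX gene, overlapped (log2 fold change −0.33, SE 0.63, unadjusted p = 0.614 by edgeR). Both belong to 21 listed markers of motile cilia, of which 6 were tested, 4 were below 0 and 0 passed the criterion defined below. They were named after their values were seen, and their part in the members' levels was not tested.

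The libraries held 15439123 to 20350539 counts, and 3 counts in a library, taken as the lowest readable level, amounted to 0.146 to 0.242 CPM. Nsd2 itself was at 47.8, 51.1 and 24.5 CPM in Nsd2 f/f and at 24.1, 10.4 and 20.8 CPM in Nsd2 Vil-KO. The genotypes did not overlap, but Nsd2 f/f replicate 3 lay just above Nsd2 Vil-KO replicate 1 (log2 fold change −1.16, SE 0.39, unadjusted p = 0.0217 and adjusted p = 0.992 by edgeR, exact two-sided permutation p = 0.1, the smallest that 3 against 3 allows). The difference missed the criterion defined below without Nsd2 f/f replicate 1 or 2. Nsd2 f/f replicate 3 and Nsd2 Vil-KO replicate 2 stood apart from the other 4 libraries. They held 4296 and 3684 counts of Xist, a transcript of female cells, against at most 5 in the others. Their mean Spearman correlation with the other libraries was 0.937 and 0.927, against 0.959 to 0.964 for the rest. Mitochondrial genes took 19.6% of the counts in Nsd2 f/f replicate 3 and 5.51% to 9.13% elsewhere. Results are therefore also given without these 2 libraries.

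The cells read as colon epithelium, with all 13 epithelial markers expressed at a summed 18751 to 25395 CPM. Fibroblast markers summed to 273.8, 66.4 and 24.8 CPM in Nsd2 f/f and to 79.4, 5.82 and 22.3 CPM in Nsd2 Vil-KO. All 8 of them had a negative log2 fold change with a median of −1.39, and none passed that criterion. Leukocyte markers summed to 33.2 to 795.1 CPM in Nsd2 f/f and to 81.8 to 1007 CPM in Nsd2 Vil-KO, smooth muscle markers to 2.02 to 17.7 and 3.27 to 10.7 CPM, endothelial markers to 2.36 to 3.41 and 0.969 to 2.48 CPM, where Pecam1 passed, and markers of enteric glia and neurons to 1.00 to 2.13 and 0.775 to 1.43 CPM. Markers of motile cilia and multiciliated cells were low, at 13.6 to 22.2 CPM in Nsd2 f/f and 6.59 to 15.7 CPM in Nsd2 Vil-KO over 21 genes, with Gmnc at 0 in every library. The part of fibroblasts and other cells in the members' levels was not tested. In such bulk samples, fewer cells of a type and less RNA per cell cannot be told apart.

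Every member had counts in all 6 libraries, at levels that differed widely between subunits. Per kb of exon, Ift20 stood highest, at 32.3 ± 4.7 CPM per kb (SD, n = 3) in Nsd2 f/f and 25.9 ± 0.72 in Nsd2 Vil-KO. Ift43 of the IFT-A complex followed at 14.2 ± 4.3 CPM per kb in Nsd2 f/f, then Ift52 of the IFT-B core at 11.7 ± 0.70, the kinesin motor subunit Kif3b at 11.0 ± 0.69 and Ift172 at 5.93 ± 0.84. Ift43, Ift52 and Kif3b did not differ beyond their spread. Within kinesin-2, Kifap3 (3.03 ± 1.04 CPM per kb) and Kif3a (2.01 ± 0.24) lay well under Kif3b, and within dynein-2 the intermediate chain Wdr34 (3.46 ± 0.31) lay above the heavy chain Dync2h1 (0.209 ± 0.029). At the low end were Bbs1 (0.207 ± 0.086), Wdr35 (0.200 ± 0.074) and the BBSome subunit Ttc8 (0.126 ± 0.054). Exon length here joins all annotated exons of a gene, which can exceed the RNA present. The order of the subunits may therefore depend partly on the annotation.

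**Figure D1:**
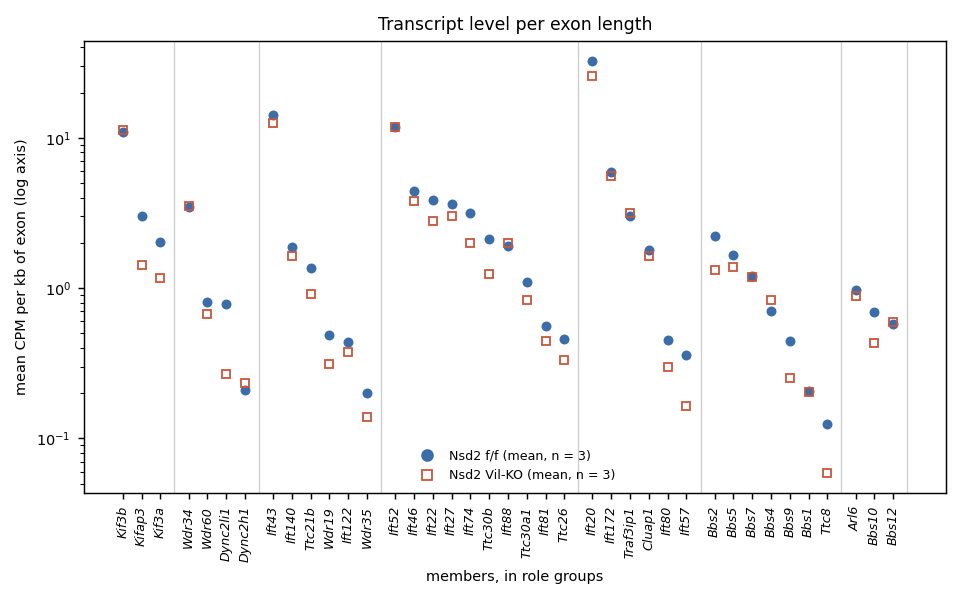
Mean transcript level of the 39 members per kb of exon (CPM per kb, log axis) in Nsd2 f/f (filled circles) and Nsd2 Vil-KO (open squares), 3 libraries each, in role groups. Ift20 was the highest in both genotypes and Ttc8 the lowest.

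The comparison asked whether these genes differed between the genotypes. Cre was carried by the Nsd2 Vil-KO mice alone, so its presence and the loss of Nsd2 cannot be told apart. Past the screening criterion, 4 members were lower in Nsd2 Vil-KO and none was higher. They were the kinesin-2 subunits Kifap3 and Kif3a, the dynein-2 light intermediate chain Dync2li1 and the BBSome subunit Bbs2. They passed the screening criterion used here, namely a difference of over 1.2-fold together with p below 0.05 before adjustment in edgeR's quasi-likelihood test, and are said to have fallen in that sense only. They were 10.5% of the 38 members that had enough counts to be tested, whereas 3.29% of all 14650 tested genes passed (482 genes, 1.65% lower and 1.65% higher). No member passed at an adjusted p below 0.05, and neither did any gene in the table (0%), the smallest adjusted p by edgeR being 0.992. DESeq2 called 4 genes of the table at that level and no member, and both forms of limma called none. The share of members past the criterion came nearer to that of all genes in other fits, at 13.2% against 9.83% in limma-voom with quality weights and at 13.2% against 7.82% with Xist as a covariate.

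The log2 fold change (Nsd2 Vil-KO over Nsd2 f/f) was below 0 in 30 of the 38 tested members (78.9%) and in 49.9% of all tested genes. Its median was −0.27 over the members and 0.00 over all tested genes, and it ranged from −1.51 for Dync2li1 to 0.24 for Bbs4. In 11 members (28.9%) all 3 Nsd2 Vil-KO libraries lay below all 3 Nsd2 f/f libraries, which held for 4.71% of all tested genes. None of the members lay above in all 3, against 5.21% of all tested genes. Such shares describe a list that was chosen with earlier results of these data known. The summed level of the members was 405.0, 396.8 and 474.5 CPM in Nsd2 f/f and 364.1, 342.3 and 395.6 CPM in Nsd2 Vil-KO, so the sums did not overlap, though Nsd2 f/f replicate 2 and Nsd2 Vil-KO replicate 3 were nearly level.

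**Figure D2:**
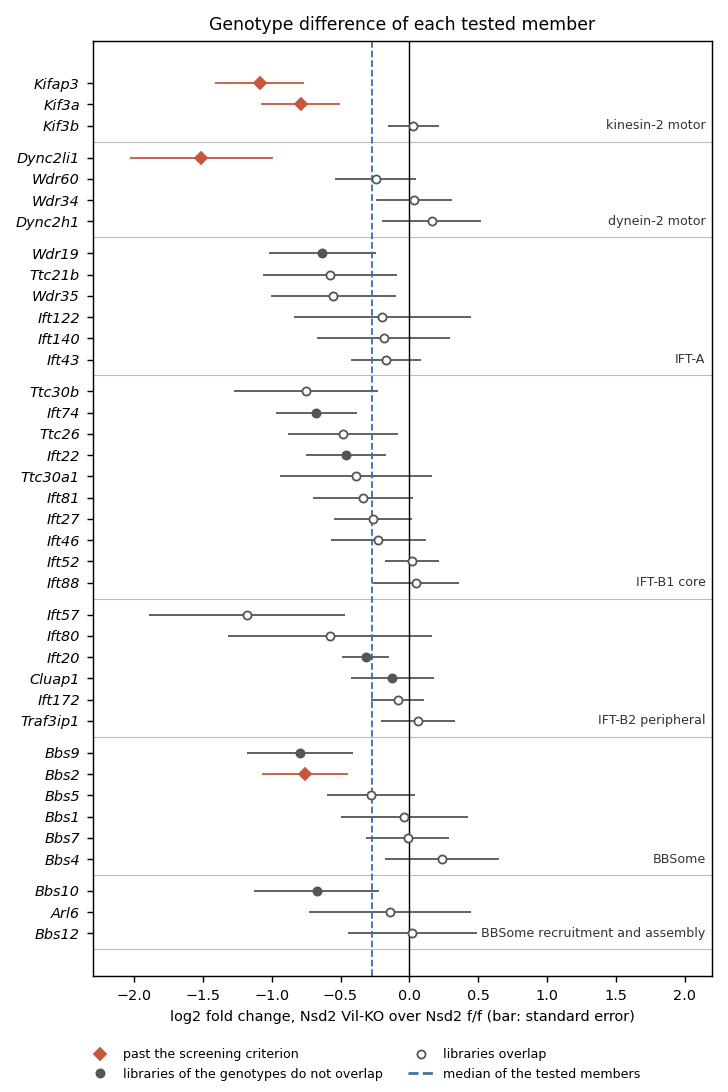
Log2 fold change of each tested member, Nsd2 Vil-KO over Nsd2 f/f, with its standard error (bars), in role groups. Diamonds mark the 4 members past the screening criterion, filled circles the other 7 whose libraries do not overlap, and the dashed line the members' median of −0.27.

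The kinesin-2 motor, which carries trains towards the tip, held 2 of the 4 members past the criterion. Kifap3 (ENSMUSG00000026585, chr1:163779583-163917109, plus strand, GRCm38) encodes the accessory subunit that links the motor pair to cargo. It was at 10.6, 8.97 and 16.9 CPM in Nsd2 f/f and at 5.79, 5.15 and 6.12 CPM in Nsd2 Vil-KO. The highest library was Nsd2 f/f replicate 3, and the Nsd2 Vil-KO libraries lay close together below all Nsd2 f/f libraries. The log2 fold change was −1.09 (SE 0.32, unadjusted p = 0.0116 and adjusted p = 0.992 by edgeR). Kifap3 passed the criterion in all 6 fits that left out 1 library each (−1.26 to −0.78), and without both libraries that stood apart (−0.71, unadjusted p = 0.0145 by edgeR).

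Kif3a (ENSMUSG00000018395, chr11:53567379-53601967, plus strand), a motor subunit, was at 7.07, 6.43 and 8.15 CPM in Nsd2 f/f and at 3.89, 4.21 and 4.39 CPM in Nsd2 Vil-KO. The genotypes were separated by a gap wider than the range within either. The log2 fold change was −0.79 (SE 0.29, unadjusted p = 0.0275 and adjusted p = 0.992 by edgeR). With 1 library left out, Kif3a passed without Nsd2 Vil-KO replicate 2 and fell short in the other 5 fits (−0.86 to −0.70, unadjusted p up to 0.0867 by edgeR). Kif3b, the partner with which Kif3a forms the motor pair, was at 57.6, 63.3 and 65.0 CPM against 57.6, 55.3 and 76.4 CPM. These libraries overlapped (log2 fold change 0.03, SE 0.19).

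The dynein-2 motor, which returns trains to the base, had 1 member past the criterion among 4. Dync2li1 (ENSMUSG00000024253, chr17:84626496-84655588, plus strand), the light intermediate chain, was at 0.940, 1.30 and 2.18 CPM in Nsd2 f/f and at 0.584, 0.554 and 0.357 CPM in Nsd2 Vil-KO. Its Nsd2 Vil-KO libraries were all below the Nsd2 f/f libraries but held few reads, at most 12 counts each. The log2 fold change was −1.51 (SE 0.52, unadjusted p = 0.0232 and adjusted p = 0.992 by edgeR). It fell short without Nsd2 f/f replicate 2, Nsd2 f/f replicate 3 or Nsd2 Vil-KO replicate 3 (−1.77 to −1.14 over the 6 such fits, unadjusted p up to 0.0845). The heavy chain Dync2h1 (0.16, SE 0.36) and the intermediate chain Wdr34 (0.03, SE 0.27) had log2 fold changes near 0, and Wdr60, the other intermediate chain, was at −0.24 (SE 0.29).

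**Figure D3:**
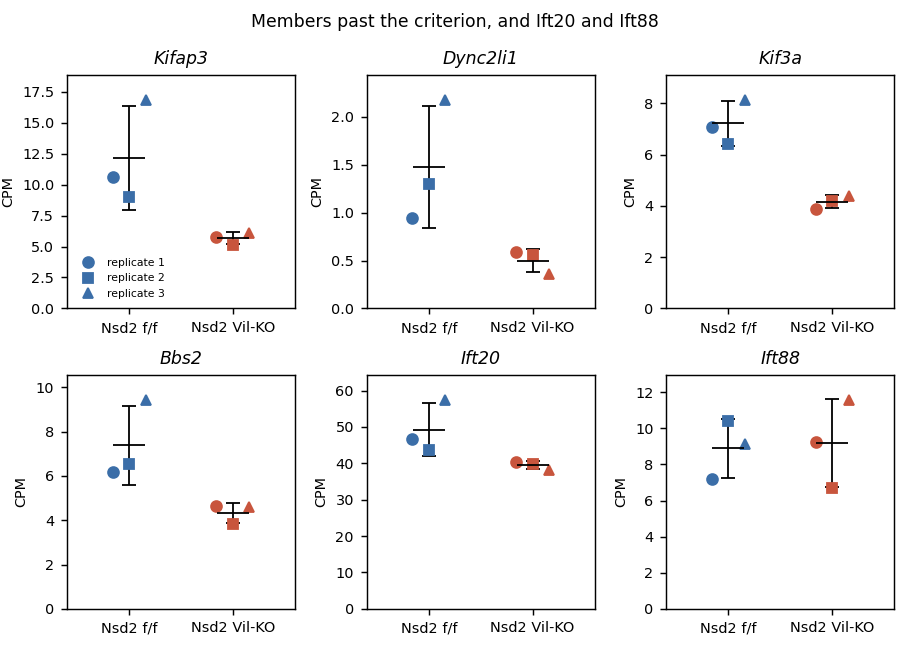
CPM of Kifap3, Dync2li1, Kif3a and Bbs2, which passed the criterion, and of Ift20 and Ift88, in each of 3 Nsd2 f/f (blue) and 3 Nsd2 Vil-KO (red) libraries, with mean and SD (bars) and symbols for the replicate number. The genotypes overlap for Ift88 and for none of the other 5.

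The IFT-A complex, which also brings certain receptors into the cilium, had all 6 log2 fold changes below 0 (median −0.37), and none passed the criterion. Only Wdr19 had no overlap, at 5.94, 5.13 and 5.32 CPM in Nsd2 f/f and 3.70, 2.05 and 4.79 CPM in Nsd2 Vil-KO. Its Nsd2 Vil-KO replicate 3 came close to the lowest Nsd2 f/f library (log2 fold change −0.63, SE 0.39, unadjusted p = 0.146 by edgeR). The others were Ttc21b at −0.57 (SE 0.49), Wdr35 at −0.55 (SE 0.45), Ift122 at −0.20 (SE 0.64), Ift140 at −0.19 (SE 0.48) and Ift43 at −0.17 (SE 0.25).

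Some of these IFT-A values rested on 1 library. Nsd2 Vil-KO replicate 2 was the lowest of the 6 libraries for 5 of the 6 IFT-A members. Ift122 was at 0.775 CPM there and at 3.78 to 5.94 CPM in the other 5, Ift140 at 4.76 against 13.9 to 20.1 CPM, and Ttc21b at 2.94 against 10.6 to 13.8 CPM. Without that library Ift122 and Ift140 turned to log2 fold changes of 0.28 and 0.22, and Ttc21b moved to −0.17, while Wdr19, Wdr35 and Ift43 stayed below 0. In the 4 libraries without the pair that stood apart, Ift122, Ift140 and Ift43 were at 0.38, 0.32 and 0.08. The same library was low for 3 IFT-B members, Ift80 (0.388 against 5.13 to 6.21 CPM), Ttc30a1 (1.16 against 2.82 to 5.36 CPM) and Ttc30b (1.38 against 4.13 to 8.31 CPM). In all, 6 members (15.8%) were there more than 2-fold below their next lowest library, against 7.30% of all tested genes. The lowest value of 20 members (52.6%) lay there, against 29.2% of all tested genes. Among the 64 tested further cilium genes described below, 9 were likewise more than 2-fold below there and 28 had their lowest value there.

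**Figure D4:**
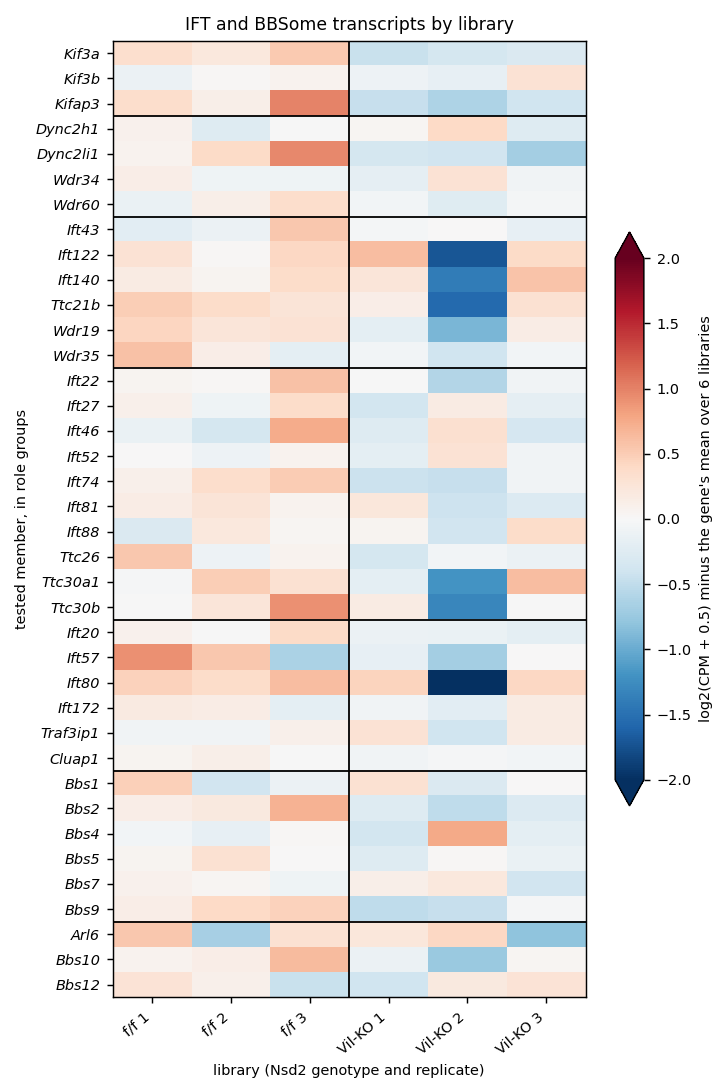
Log2(CPM + 0.5) of the 38 tested members in each library, as the difference from the member's mean over the 6 libraries, in role groups, with the colour scale held at ±2. Dark blue in Nsd2 Vil-KO replicate 2 marks Ift122, Ift140, Ttc21b, Ttc30a1, Ttc30b and Ift80, while Kifap3, Kif3a and Ift74 are pale to mid blue in all Nsd2 Vil-KO libraries.

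The IFT-B complex, which binds tubulin and other building material, had 13 of 16 log2 fold changes below 0 and no member past the criterion. In its core of 10 subunits the median was −0.36. Ift74, which with Ift81 forms a tubulin-binding module, was at 7.12, 8.61 and 9.60 CPM in Nsd2 f/f and at 4.82, 4.65 and 6.33 CPM in Nsd2 Vil-KO. All its Nsd2 Vil-KO libraries lay below, and the value just missed the criterion (log2 fold change −0.68, SE 0.29, unadjusted p = 0.0541 by edgeR). It passed in 5 alternatives, DESeq2 among them (unadjusted p = 0.0273). Ift22, a Rab-like small GTPase, was at 12.1, 11.9 and 17.8 CPM against 11.6, 7.59 and 11.1 CPM. The gap between its genotypes was narrow (log2 fold change −0.46, SE 0.29, unadjusted p = 0.157 by edgeR).

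Ift88 (ENSMUSG00000040040, chr14:57424062-57517936, plus strand), the core subunit whose loss is widely used to abolish cilia, was at 7.17, 10.4 and 9.12 CPM in Nsd2 f/f and at 9.25, 6.70 and 11.6 CPM in Nsd2 Vil-KO. The genotypes overlapped fully, with Nsd2 Vil-KO libraries at both ends of the range (log2 fold change 0.05, SE 0.31, unadjusted p = 0.881 by edgeR). Its exons share 67 bases with Ift88os on the opposite strand, and the reads of the pair cannot be told apart without the strand setting. The same limit holds for Ift57 (225 bases shared with Gm15518), Bbs4 (194 with Adpgk), Arl6 (55 with 4930547E14Rik) and Bbs12 (32 with Cetn4). Ift52, a scaffold of the core, was at a log2 fold change of 0.02 (SE 0.19). At the other end, Ttc30b was at −0.75 (SE 0.52) and Ttc26 at −0.48 (SE 0.40). Ttc30a1 (−0.39, SE 0.55) and Ttc30b are near-identical neighbours on chromosome 2, so the reads between them are uncertain. Ift46 was at −0.22 (SE 0.34).

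In the peripheral part of IFT-B the median of 6 subunits was −0.22. Ift20 (ENSMUSG00000001105, chr11:78536361-78541737, plus strand), which also sorts membrane proteins at the Golgi, was at 46.7, 43.7 and 57.4 CPM in Nsd2 f/f and at 40.3, 39.9 and 38.3 CPM in Nsd2 Vil-KO. The 3 Nsd2 Vil-KO libraries were tightly grouped and lay just under Nsd2 f/f replicate 2 (log2 fold change −0.32, SE 0.17, unadjusted p = 0.108 by edgeR). Cluap1 had no overlap either, at 4.06, 4.31 and 3.87 CPM against 3.70, 3.82 and 3.72 CPM. Its difference was small (log2 fold change −0.12, SE 0.30, unadjusted p = 0.695 by edgeR), and its exons overlap other annotated genes on both strands. Ift57 had the most negative value of the complex, −1.18 (SE 0.71), but overlapped, since Nsd2 f/f replicate 3 was at 0.242 CPM, which is 3 counts. It passed the criterion without Nsd2 f/f replicate 3, and without both libraries that stood apart (−1.26, unadjusted p = 0.0458 by edgeR). Ift80 (−0.58, SE 0.74), Ift172 (−0.08, SE 0.19) and Traf3ip1 (0.06, SE 0.27) overlapped as well.

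Of the BBSome, 5 of 6 tested subunits had a log2 fold change below 0 (median −0.16). Bbs2 (ENSMUSG00000031755, chr8:94067954-94098928, minus strand), a subunit at the core of the assembly, was at 6.18, 6.55 and 9.44 CPM in Nsd2 f/f and at 4.62, 3.82 and 4.59 CPM in Nsd2 Vil-KO. The lowest Nsd2 f/f library was well clear of the highest Nsd2 Vil-KO library. The log2 fold change was −0.76 (SE 0.31, unadjusted p = 0.0463 and adjusted p = 0.992 by edgeR), and it did not pass the criterion in any of the 6 fits with 1 library left out (−0.87 to −0.55). Bbs9, which enters the assembly together with Bbs2, was at 2.33, 2.89 and 3.07 CPM against 1.31, 1.38 and 2.04 CPM. All its Nsd2 Vil-KO libraries were below (log2 fold change −0.79, SE 0.38, unadjusted p = 0.0757 by edgeR). Bbs5 (−0.28, SE 0.32), Bbs1 (−0.04, SE 0.46), Bbs7 (−0.01, SE 0.30) and Bbs4 (0.24, SE 0.41) overlapped, and with scaling by library size alone Bbs1 and Bbs7 turned to 0.01 and 0.02. Ttc8, the remaining subunit, was too low to test, with 5, 9 and 8 counts in Nsd2 f/f and 5, 4 and 4 counts in Nsd2 Vil-KO.

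Among the factors that assemble or recruit the BBSome, the chaperonin-like Bbs10 was at 1.73, 1.83 and 2.82 CPM in Nsd2 f/f and at 1.46, 0.775 and 1.68 CPM in Nsd2 Vil-KO. The genotypes met but did not overlap (log2 fold change −0.67, SE 0.45, unadjusted p = 0.181 by edgeR). The related Bbs12 was at 0.02 (SE 0.47), and Arl6, the small GTPase that brings the BBSome to membranes, at −0.14 (SE 0.59).

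The shift of the members stayed below 0 when libraries were left out, with a smaller size without the pair that stood apart. In the 4 other libraries the median log2 fold change of the members was −0.17 against 0.00 for all genes, and 29 of 38 members were below 0. In that fit 3 members passed, Kifap3, Kif3a and Ift57 (7.89% of the members, against 11.0% of all genes). With 2 libraries a group, 18 members lay below without overlap (47.4%, against 21.7% of all genes). Another 3 members lay above, a number that cannot be judged, since the share of all genes that lay above was not counted. Leaving out Nsd2 f/f replicate 3 alone gave a median of −0.19 and Nsd2 Vil-KO replicate 2 alone −0.22. Nsd2 f/f replicate 3 held the highest value of 15 of the 38 members (39.5%), against 23.7% of all tested genes.

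**Figure D5:**
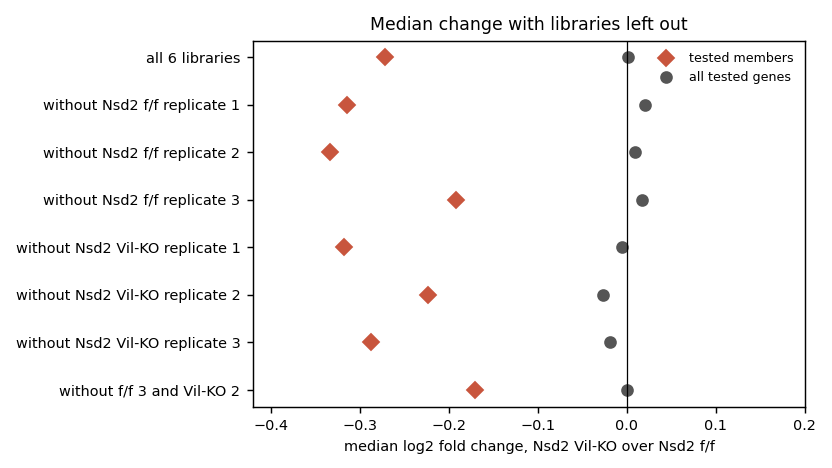
Median log2 fold change, Nsd2 Vil-KO over Nsd2 f/f, of the tested members (diamonds) and of all tested genes (circles) with all 6 libraries, with each library left out, and without Nsd2 f/f replicate 3 and Nsd2 Vil-KO replicate 2. The members' median lies between −0.33 and −0.17 in every row and that of all genes near 0.

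Of 78 further cilium genes listed by role, 64 were tested, 40 had a log2 fold change below 0 (62.5%, against 49.9% of all tested genes), and the median was −0.09. Of these 64, 2 passed the criterion, both lower, a share of 3.12% that is close to the 3.29% of all tested genes. Without overlap, 7 of the 64 were lower and 0 higher, against 4.71% and 5.21% of all tested genes. Both that passed belong to the partners of IFT and the BBSome. Dynll1, a light chain shared by dyneins and many other complexes, was at 296.6, 336.5 and 352.2 CPM in Nsd2 f/f and at 245.7, 186.7 and 246.4 CPM in Nsd2 Vil-KO (log2 fold change −0.54, SE 0.20, unadjusted p = 0.0326 by edgeR). Arl3, a GTPase that releases lipidated cargo inside the cilium, was at 5.10, 2.83 and 5.65 CPM against 2.43, 0.886 and 2.04 CPM (log2 fold change −1.32, SE 0.49, unadjusted p = 0.0307 by edgeR). Neither overlapped between genotypes, and leaving out 1 library moved the count of 2 to between 0 and 4. The 23 tested partners had a median of −0.25, with 18 below 0 and 4 lower without overlap. The 33 tested genes of the basal body and transition zone had a median of −0.05, with 19 below 0, 3 lower without overlap and none past the criterion.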

How the data were processed

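Colon IECs were released with EDTA from DSS-treated mice and poly(A) RNA was sequenced, 3 libraries for each genotype. The study's methods name a directional library kit, whereas the labels name another kit. Per the labels, reads were aligned with HISAT2 to mm10. The authors deposited raw counts per gene for 6 libraries, and no column of per-sample values was left out (0). The counting program and its strand setting are not given in the sources used here.

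Counts were tested with edgeR 4.0.16 (R 4.3.3; quasi-likelihood fit with robust estimation, TMM scaling, filterByExpr by genotype, no covariate) over all genes passing the filter, with Benjamini-Hochberg adjustment over all of them. The quasi-likelihood test replaces the Ballgown test named in the study's methods, which needs other files. CPM are TMM-scaled, and the standard error (SE) is the log2 fold change divided by the root of the test's F value. The screening criterion was a fold change above 1.2 with an unadjusted p below 0.05. The estimated biological coefficient of variation was 41.3%. Exon lengths and gene positions came from GENCODE vM21, which held 99.4% of the table's genes, and promoters from RefSeq. The steps were tested on simulated data. Alternatives used limma 3.58.1, DESeq2 1.42.0, other scalings, filters and limits, and left out libraries.

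The members and lists were chosen with earlier results of these data known. Named were Nsd2, Ift20, Ift88, each member past the criterion, without overlap or untested, the 3 most positive and 3 most negative of each role group (all in groups of 6 or fewer), and other cilium genes past the criterion. Values in each library were printed for members past the criterion or without overlap, and for Ift20 and Ift88. Those of Kif3b were printed beside Kif3a outside this rule. Members low in Nsd2 Vil-KO replicate 2 were named after their values were seen. The lowest readable level covers counting error only.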

Additional observations from a re-analysis of the deposited data

How the results depend on the processing

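The members' median log2 fold change stayed below 0 in every alternative run, and 27 to 31 members were below 0. No member passed at an adjusted p below 0.05 in any. Kifap3 passed the criterion in every alternative. With 1 library left out, 323 to 769 genes (2.14% to 5.08%), 1 to 3 members (2.63% to 7.89%) and 0 to 4 other cilium genes passed. The members' share was 2.63% without Nsd2 f/f replicate 2 (2.14% of all genes) and 2.63% without Nsd2 Vil-KO replicate 3 (3.40% of all genes). Over all such fits 12 to 15 members were lower without overlap (31.6% to 39.5%, against 7.30% to 14.5% of all genes). At most 1 member was higher without overlap in any of them, and that share of all genes was not counted. In these fits 29 to 31 members were below 0. The members' median was −0.33 to −0.19 in them, and Nsd2 was at −1.42 to −0.87. Scaling by library size alone left 2 members (5.26%, against 2.61% of all genes) and 0 other cilium genes past the criterion, with Nsd2 at −1.12 (unadjusted p = 0.0617 by edgeR). With no filter 861 genes passed. With limma-voom 1440 genes (9.83%), 5 members (13.2%) and 5 other cilium genes passed, and with Xist as a covariate 1145 genes (7.82%) and 5 members (13.2%). Without both libraries that held Xist, 1646 genes (11.0%) and 3 members (7.89%) passed. There 21 members did not overlap, 18 of them lower (47.4%, against 21.7% of all genes), and the share of all genes that lay higher was not counted. A fold change above 2 left 279 of 14650 genes, 2 of 38 members and 1 of 64 other cilium genes. The replicate block left 303 genes (2.07%), 1 member (2.63%) and 1 other cilium gene past the criterion. Replicate numbers were not taken as pairs. For this, each library's deviations from its genotype's mean (log2(CPM + 1) of all tested genes) were compared. Between same-numbered libraries these deviations correlated at 0.29, −0.38 and −0.17. The older dispersion moderation of edgeR, added after the data were seen, gave 434 genes (2.96%) and 3 members (7.89%).

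The log2 fold changes of some members turned in some alternatives. Under limma-voom, Dync2h1 was at −0.000695, Wdr34 at −0.12, Ift43 at 0.0308, Ift122 at 0.27, Ift140 at 0.24, Ift52 at −0.0754, Bbs1 at 0.17, Bbs4 at −0.15 and Bbs12 at −0.26. Without both libraries that held Xist, Dync2h1 was at −0.0178, Wdr34 at −0.16, Ift43 at 0.0826, Ift122 at 0.38, Ift140 at 0.32, Ift52 at −0.0875, Ttc30a1 at 0.0315, Ift80 at 0.0331, Bbs1 at 0.0358, Bbs4 at −0.18 and Bbs12 at −0.30. Bbs1 was at 0.0084 and Bbs7 at 0.0164 with library size alone, and Bbs1 at 0.0041 in limma on log2(CPM + 1) and at 0.0099 in the replicate block. With 1 library left out, Kif3b ranged from −0.13 to 0.11, Dync2h1 from −0.0473 to 0.33, Wdr34 from −0.13 to 0.14, Ift43 from −0.31 to 0.11, Ift122 from −0.63 to 0.28, Ift140 from −0.58 to 0.22, Ift46 from −0.47 to 0.18, Ift52 from −0.13 to 0.12, Ift88 from −0.15 to 0.23, Ttc30a1 from −1.02 to 0.00067, Ift172 from −0.19 to 0.0010, Traf3ip1 from −0.0791 to 0.25, Bbs1 from −0.26 to 0.38, Bbs4 from −0.24 to 0.46, Bbs7 from −0.13 to 0.16, Arl6 from −0.48 to 0.22 and Bbs12 from −0.19 to 0.27. The cause of these moves was not tested beyond the libraries left out.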

Other observations

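Hedgehog signalling in vertebrates passes through the primary cilium. Of 18 listed genes of ciliary signalling, 8 were tested, 3 had a log2 fold change below 0, none passed the criterion in edgeR's test, and their median was 0.04. Ihh, the ligand made by colonic epithelium, was at 66.5, 87.3 and 96.8 CPM in Nsd2 f/f and at 90.3, 66.5 and 89.1 CPM in Nsd2 Vil-KO, so the genotypes overlapped (log2 fold change −0.03, SE 0.21). The receptor gene Ptch1 (0.05, SE 0.35) and the transducer gene Smo (−0.16, SE 0.25) were measured well above the lowest readable level. The transcription factor gene Gli1 had 5, 2 and 2 counts in Nsd2 f/f and 0, 0 and 4 counts in Nsd2 Vil-KO, and Gli2 at most 3 counts in any library, so no difference was detectable at this depth. The genes named here were picked from that list after their values were seen.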
